A study of Mus musculus with 78 samples.

Results

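Single 4-cell mouse blastomeres were divided by their level of Sox21, and every other gene was compared between the 2 sets. The members are 21 of the 78 sequenced blastomeres of the series. They are the columns of the deposited 4-cell gene table with 5000 or more genes above an FPKM of 1 (fragments per kilobase of transcript, scaled to library size). Blastomeres with Sox21 above the median of these columns were called Sox21-high (n = 10), and those at or below it Sox21-low (n = 11). The other 3 columns of the table fell under 5000 genes and were left out. Sox21 itself chose the groups, so its values are given as a description.

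In Rainbow-seq, a Brainbow-2.1 fluorescent marker read from the RNA of a blastomere tells from which cell of the 2-cell embryo it descends. All embryos came from a cross of a strain with CAG-Brainbow2.1 at the Rosa26 locus and a strain with the transgene Tg(CAG-cre/Esr1*)5Amc, and held one copy of each construct. The ubiquitous CAG promoter drives a Cre that acts only when 4-Hydroxytamoxifen is present, and 2-cell embryos received that drug for 2 h and were then grown in KSOM. Both Sox21 groups therefore share genotype, drug and culture, no untreated embryo was among them, and the groups are not groups of the study. The labels describe 24 lineage-resolved 4-cell blastomeres from 6 embryos, but the column names, S1 to S24, name neither embryo nor cell. Columns were not assigned to embryos by their order or depth, so embryo and lineage of a column were not used, and a difference between Sox21-high and Sox21-low blastomeres cannot be told apart here from a difference between embryos. Blastomeres of an embryo are not replicates, so values are given as medians and ranges over blastomeres, without tests.

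Sox21 is a transcription factor of the SoxB2 group, whose members bind DNA through an HMG box and mostly repress their targets. In the mouse embryo it is known as a target of the pluripotency factors Oct4 (encoded by Pou5f1) and Sox2 that is unevenly expressed between the blastomeres of a 4-cell embryo. Low Sox21 has been linked to the trophectoderm fate, the future placenta, and high Sox21 to the inner cell mass. Upstream of it, the arginine methyltransferase Carm1 and the paraspeckle RNA Neat1 have been placed. Sox2 and Cdx2, the factors that define the inner and outer fates, were not analysed here at 4 cells.

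Sox21 (Entrez 223227) is a gene with 1 exon of 3798 bases on the minus strand of chromosome 14, at chr14:118233233-118237030 of GRCm38.p6, the assembly behind mm10. The 30 bases that precede its start, at chr14:118237031-118237060, are shown as the RefSeq reference of the gene that made the split, with no capitals because none of the 3 motifs searched below lay in its promoter.

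Sox21: cccggctcctcctccgcactcccaggatat

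The median of Sox21 over the 21 blastomeres was 0.921 FPKM. In the Sox21-high blastomeres the lowest value was 1.07, the median 3.35 and the highest 41.6 FPKM. In the Sox21-low blastomeres 4 of 11 were at 0, the median was 0.0219 and the highest value was 0.921 FPKM. The blastomeres nearest to the threshold were thus at 0.921 and 1.07 FPKM and differed by little. The top of the range was one blastomere, S19, at 41.6 FPKM, followed by S11 at 11.8 and S22 at 6.46 FPKM. With the number of fragments that the low FPKM values reveal, the Sox21-high values stood for 61 to 2351 fragments (median 169.5) and the Sox21-low values for 0 to 47 (median 1). Reads carried no molecular identifiers, so these are not counts of molecules, and a level of 0 in a single cell can also be a transcript missed by the library.

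**Figure D1:**
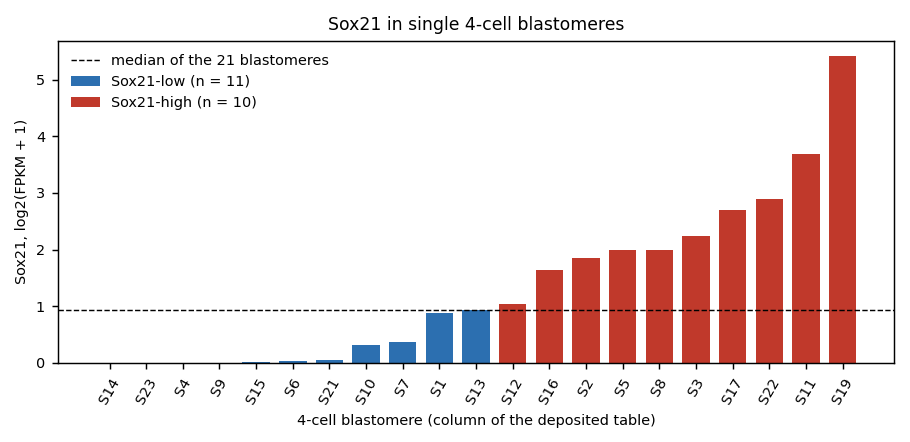
Sox21 as log2(FPKM+1) on the vertical axis for each of the 21 4-cell blastomeres, ordered by level. Blue bars are the 11 Sox21-low and red bars the 10 Sox21-high blastomeres, and the dashed line is the median, 0.921 FPKM, which the blastomere S13 defines.

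Neither set was deeper or richer in genes. Genes above an FPKM of 1 numbered 6319 to 8119 in Sox21-high (median 7284) and 5336 to 8276 in Sox21-low blastomeres (median 7131). The FPKM denominator, recovered from the low values, ran from 7.81 M to 15.7 M fragments in the first set (median 13.6 M) and from 6.87 M to 16.9 M in the second (median 13.4 M). Over the 21 blastomeres, Spearman's rho of Sox21 was -0.0026 with that denominator and 0.061 with the number of genes. The label of embryonic cells was checked on Dppa3, a maternal chromatin protector, at a median of 3744 against 3589 FPKM. Zp3, a zona pellucida glycoprotein made by the oocyte, was at 90.8 against 86.8 FPKM. Other genes of the oocyte and early embryo, Nlrp5, Ooep and Pou5f1, were not detected in every blastomere. Nlrp5 had medians of 5.39 FPKM in Sox21-high and 1.68 in Sox21-low blastomeres, Ooep 0.591 and 2.65, and Pou5f1 38.5 and 47.1. Nlrp5 and Ooep were at 0 in some blastomeres of both sets, and Pou5f1 was at 0 in S22. The markers of other cells were at or near 0. The summed FPKM of the 3 cumulus and granulosa markers that the table lists reached 2.27 in Sox21-high and 0.0623 in Sox21-low blastomeres, with a median of 0 in both. That of the 3 sperm markers reached 6.00 and 8.79, and the single blood marker, Alas2, reached 0 and 0.457. The blastomeres S16 and S22 of the Sox21-high set held several extreme values. The 80 named genes were recomputed with 1 blastomere left out. Where a difference past 1 ended, it is given without 1 such blastomere, and leaving out others could end it too.

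Across the transcriptome the sets overlapped everywhere. The genes compared were the 7910 with a mean log2(FPKM+1) of 1 or more, and the difference is the Sox21-high median minus the Sox21-low median on that scale. A difference of 1 or more was found for 602 genes (7.61% of all compared) and one of -1 or less for 749 (9.47%), together 17.1%. No gene (0%) had ranges that did not overlap between the sets, in either direction. The median difference was -0.02, with quartiles of -0.41 and 0.31, so the typical gene had like medians in both sets. These percentages are the background for all lists below.

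Large differences belonged to weakly expressed genes. Among the 1988 genes with a mean level from 1 to 2 on the log2 scale, 40.1% were past 1 in either direction. From 2 to 4 the share was 17.5%, from 4 to 6 it was 4.07%, and above 6 it was 0.510% of 1372 genes. In 383 of the 602 higher genes (63.6%) the Sox21-low median was at or under 1 FPKM, and in 364 of the 749 lower genes (48.6%) the Sox21-high median was. For a gene detected in only some blastomeres of a set, 1 blastomere more or less can move the median from 0 to several FPKM. The lists below were not matched for level, so their shares past 1 are not set against genes of like level.

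**Figure D2:**
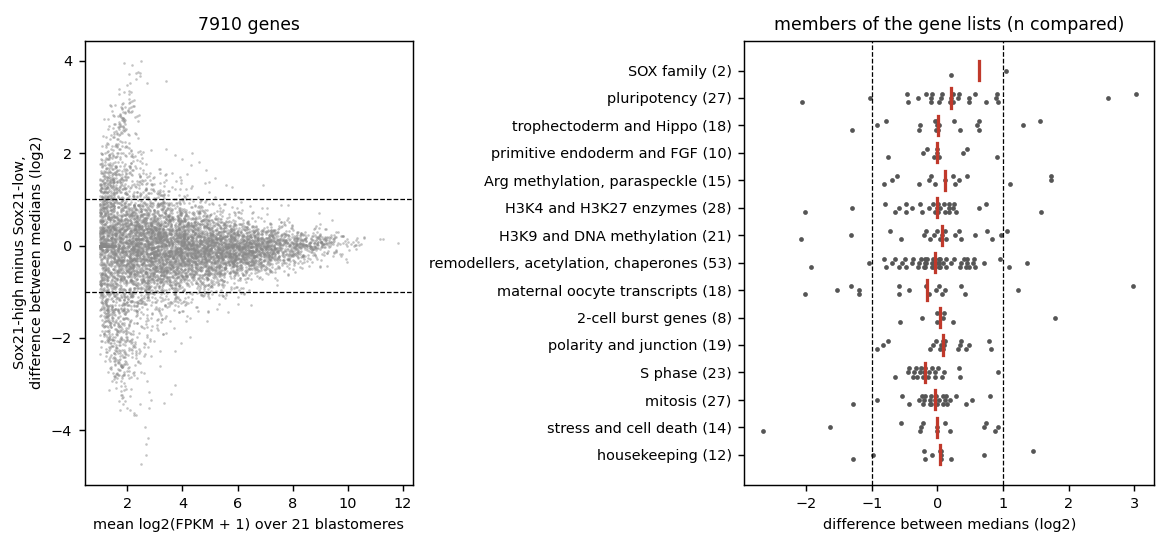
Left, difference between the group medians of log2(FPKM+1) against the mean level for each of the 7910 genes, with dashed lines at 1 and -1; the cloud narrows as the level rises. Right, the same difference for the compared members of each gene list drawn (grey points) with the list median (red bar), which lies within 1 of 0. The sex-linked list, with a median of -1.72, is not drawn.

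Among abundant genes, those above a mean of 6, a single gene was past 1 upwards and 6 downwards, and they are named here after their values were seen. Id3, an inhibitor of helix-loop-helix factors and a target of BMP signalling, had 33.4 to 538 FPKM in Sox21-high (median 178) and 29.8 to 654 in Sox21-low blastomeres (median 66.8), a difference of 1.32. Its highest value thus lay in a Sox21-low blastomere. The lower genes were B2m, Stt3a, the acid sphingomyelinase gene Smpd1 (-1.11), the oocyte gene Oog3 (-1.06), Crlf3 (-1.03) and the histidyl-tRNA synthetase gene Hars (-1.02). Id3, Smpd1, Oog3, Crlf3 and Hars were not recomputed with a blastomere left out or under another setting. Stt3a had the cleanest order of all 7910 genes. In 6.36% of the 110 pairs of a Sox21-high with a Sox21-low blastomere, the first had more of it, where the quartiles over all genes were 40.9% and 57.3%.

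As whole transcriptomes, the blastomeres of a set were no more alike than those of different sets. Across the 7910 genes, Spearman's rho between a pair of blastomeres had a median of 0.70 in the 45 pairs within Sox21-high (0.61 to 0.81). It was 0.69 in the 55 pairs within Sox21-low (0.58 to 0.82) and 0.70 in the 110 pairs between the sets (0.59 to 0.84). For 7 of the 10 Sox21-high blastomeres the median with their own set was above that with the other set, and for 4 of the 11 Sox21-low blastomeres. The closest match lay in the own set for 3 of 10 and 8 of 11. S19, which had the most Sox21, matched S17 best, another Sox21-high blastomere, at a rho of 0.78. Each blastomere from S1 to S12 had its closest match among S1 to S12, and each compared one from S13 to S23 among S13 to S23. Both Sox21 sets had blastomeres in either block, and the cause of the blocks was not tested. Which pairs came from 1 embryo is not known.

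Of the pluripotency factors, the core genes were detected in most blastomeres of both sets, with medians that differed by less than 1. The list of 36 had 27 compared genes, of which 2 were higher and 2 lower by 1 or more (14.8% past 1, against 17.1% of all genes), and their median difference was 0.21. Pou5f1, which encodes Oct4, had 0 to 87.6 FPKM in Sox21-high (median 38.5) and 5.46 to 69.8 in Sox21-low blastomeres (median 47.1), a difference of -0.29. It was above 1 FPKM in 9 of 10 and 11 of 11 blastomeres. The blastomere without Pou5f1 was S22, the shallowest library of its set, which had 6.46 FPKM of Sox21. The Pou5f1 difference was -0.18 without S22, -0.40 without S16 and -0.059 with an equal sum of FPKM. Nanog, the homeobox factor of the inner cell mass, had medians of 24.6 and 21.1 FPKM and ranges from near 0 to 80.9 and to 89.0. Klf4 (4.13 against 1.69 FPKM, difference 0.89, with 0.30 without S1 and 1.24 without S8) and Prdm14 (10.4 against 11.1 FPKM, difference -0.10), an epigenetic guard of naive pluripotency, overlapped as well. Klf4 reached 64.9 FPKM in S19, the blastomere with the most Sox21, and 11.6 FPKM in Sox21-low blastomeres. These differences moved with the blastomeres compared. When the top 7 blastomeres by Sox21 were set against the bottom 7, Pou5f1 differed by 0.51, Nanog by 1.29, Klf4 by -0.048 and Prdm14 by -1.07. Nanog was -0.35 without S13 and 0.81 without S9, and Prdm14 was -0.46 without S10 and 0.053 without S3. Among the 14 blastomeres with 7000 or more genes Nanog differed by -0.78, and with all 24 columns Klf4 differed by 1.53.

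The pluripotency genes past 1, with the exception of Zfp42, were above 1 FPKM in only some blastomeres of each set. Tcl1, a co-activator of the Akt kinase, was above 1 FPKM in 6 of 10 Sox21-high blastomeres (median 7.21, highest 29.6) and in 5 of 11 Sox21-low blastomeres (median 0, highest 110), a difference of 3.02 that was 1.63 without S1, 0.30 between group means and 0.037 among blastomeres with 7000 or more genes. The median and the maximum of Tcl1 therefore pointed to different sets. Stat3, the transcription factor of the LIF pathway, was above 1 FPKM in 7 of 10 (median 5.03, highest 7.63) and 5 of 11 (median 0, highest 20.7), a difference of 2.59 that was 0.34 between group means. Mycn, a Myc family factor, was at 0 in 9 of 10 Sox21-high blastomeres and reached 8.58 FPKM in S16, while 6 of 11 Sox21-low blastomeres had 3.19 to 22.0 FPKM. Its difference was -2.07, and -1.03 when the Sox21-low blastomere S6 was left out. Zfp42 (Rex1), a marker of naive pluripotency, had 0 to 110 FPKM in Sox21-high (median 28.9) and 2.10 to 105 in Sox21-low blastomeres (median 58.1), a difference of -1.03. It stayed past -1 in 10 of the 21 leave-one-out computations, was -0.64 without S7, and turned to 0.42 between the top and bottom 7.

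Trophectoderm and Hippo genes gave no common direction. Of 18 compared genes, 2 were higher and 1 lower by 1 or more (16.7%, against 17.1% of all genes), with a median difference of 0.00. Eomes and Gata3, trophoblast transcription factors, were too low for the comparison, with medians of 0 in both sets. Eomes was above 1 FPKM in 2 of 10 and 1 of 11 blastomeres and Gata3 in 3 of 10 and 3 of 11. The factors already active at this stage were well detected. Tfap2c, an AP-2 factor, had 21.2 to 115 FPKM in Sox21-high (median 48.2) and 39.1 to 81.1 in Sox21-low blastomeres (median 58.0). Tead4, the DNA-binding partner of Yap1, had medians of 47.1 and 48.2 FPKM, a difference of -0.03 that was 1.22 between the top and bottom 7 blastomeres by Sox21 and -0.61 among blastomeres with 7000 or more genes. Yap1, the Hippo co-activator, had 4.06 to 32.6 FPKM in Sox21-high (median 15.5) and 1.91 to 30.6 in Sox21-low blastomeres (median 9.60). Of the Sox21-high blastomeres 8 of 10 were above the Sox21-low median of Yap1, and 1 of 11 Sox21-low blastomeres was above the Sox21-high median, yet its difference was 0.64 and it was not past 1.

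The genes of this list past 1 were above 1 FPKM in only some blastomeres of each set. Vgll4, a Tead cofactor that competes with Yap1, was above 1 FPKM in 5 of 10 (highest 48.1) and 5 of 11 blastomeres (highest 40.7). Its medians were 2.80 and 0.113 FPKM, a difference of 1.57 that was 0.53 without S10 and -0.15 among blastomeres with 7000 or more genes. Tead2 was likewise above 1 FPKM in 5 of 10 (highest 19.0) and 5 of 11 (highest 16.4), with a difference of 1.30 that was 0.73 without S15 and 0.37 with all 24 columns. Fgfr2, the FGF receptor of the trophectoderm and primitive endoderm, was above 1 FPKM in 4 of 10 Sox21-high (highest 8.08) and 7 of 11 Sox21-low blastomeres (highest 18.4), a difference of -1.30. With all 24 columns of the table it was 0.083. Fgfr2 at 8 cells lay on the other side, as given below.

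The arginine methylation and paraspeckle list held 3 higher genes and no lower one among 15 compared (20.0% past 1, against 17.1% of all genes). Its median difference was 0.12. Carm1 and Neat1 had means of 1.20 and 1.12 on the log2 scale. Of all genes with a mean from 1 to 2, 40.1% were past 1. Carm1 was at 0 in 4 of 10 Sox21-high blastomeres and had 2.01, 3.02, 4.19, 6.73, 9.02 and 9.97 FPKM in the other 6. Of the Sox21-low blastomeres 5 of 11 were at 0, and the highest values were 2.03, 2.74, 4.26 and 5.67 FPKM. The difference between the medians of Carm1 was 1.74, but only 6 of 10 against 4 of 11 blastomeres were above 1 FPKM, and Spearman's rho with Sox21 was 0.21. With the 14 blastomeres that had 7000 or more genes, the difference of Carm1 turned to -0.72, and between group means it was 0.71. Neat1, the RNA scaffold of paraspeckles, was above 1 FPKM in 7 of 10 Sox21-high (highest 10.6) and 3 of 11 Sox21-low blastomeres (highest 7.74), and 7 of 11 of the latter were at 0. Its difference was 1.74, and 1.005 between group means. Its rho with Sox21 was 0.51, and the difference stayed past 1 in all 21 leave-one-out computations. Sfpq, a paraspeckle protein, was detected more evenly, with 4.08 to 60.9 FPKM in Sox21-high (median 24.6) and 0.952 to 36.8 in Sox21-low blastomeres (median 10.9), a difference of 1.10 that was 0.60 between the top and bottom 7. The other 12 compared members were within 1 of 0, with a lowest difference of -0.82. Nono had medians of 166 and 176 FPKM, and Prmt1, the main arginine methyltransferase, 45.3 and 38.2 FPKM.

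Of the enzymes that set or remove methyl groups on H3K4 and H3K27, 1 was higher and 2 were lower among 28 compared. That is 10.7% past 1, against 17.1% of all genes, and the median difference of these enzymes was 0.00. Setd1a, a catalytic subunit of an H3K4 methyltransferase complex, showed the most regular pattern of them. It had 0.145 to 11.5 FPKM in Sox21-high blastomeres (median 2.33) and was above 1 FPKM in 9 of 10. In Sox21-low blastomeres it had 0 to 7.99 FPKM (median 0.113) and was above 1 FPKM in 3 of 11, a difference of 1.58 that was 0.94 between group means. Kdm1b, an H3K4 demethylase of the oocyte, had medians of 0.341 and 4.36 FPKM and was above 1 FPKM in 4 of 10 and 8 of 11 blastomeres. The difference of Kdm1b was -2.02, and -1.08 between group means. Kdm6a, the X-linked H3K27 demethylase, had medians of 3.83 and 10.1 FPKM, a difference of -1.30 that was -0.75 without S7 and -0.36 between group means. The Polycomb core stayed close to 0. Ezh2, its methyltransferase, had 11.3 to 116 FPKM in Sox21-high (median 32.6) and 7.38 to 53.3 in Sox21-low blastomeres (median 30.3), and Suz12 differed by 0.24 and Eed by -0.38.

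Of the genes for H3K9 and DNA methylation, 1 was higher and 2 were lower among 21 compared (14.3%, against 17.1% of all genes). Their median difference was 0.07. Setdb2, a SET-domain protein of the H3K9 methyltransferase family, was among the better detected chromatin genes past 1. It had 2.80 to 38.3 FPKM in Sox21-high (median 17.8) and 4.58 to 84.7 in Sox21-low blastomeres (median 45.7), a difference of -1.32 that was -0.94 between group means. No Sox21-high blastomere exceeded the Sox21-low median of Setdb2, while 7 of 11 Sox21-low blastomeres exceeded the Sox21-high median. Ehmt2 (G9a), which dimethylates H3K9, had medians of 7.88 and 3.24 FPKM, a difference of 1.06 that was 0.75 without S10 and -0.078 among blastomeres with 7000 or more genes. Uhrf1, which guides the maintenance DNA methyltransferase to replicated DNA, was above 1 FPKM in 5 of 10 and 7 of 11 blastomeres, a difference of -2.07 that was -0.98 between group means. Its partner Dnmt1 was at like levels, with medians of 8.40 and 7.55 FPKM and a difference of 0.14 that was 0.00041 without S1.

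Chromatin remodellers, histone acetylation enzymes and histone chaperones formed the largest list, with 53 compared genes, and the smallest share past 1 of the chromatin lists, 7.55%, against 17.1% of all genes. The median difference was -0.03. Smarca2, an ATPase of the BAF remodelling complexes, was above 1 FPKM in 3 of 10 Sox21-high (median 0.427) and 8 of 11 Sox21-low blastomeres (median 4.28). Smarca2 differed by -1.92, and by -1.05 between group means. Its paralogue Smarca4 had 13.3 to 63.8 FPKM (median 31.2) and 15.7 to 46.0 FPKM (median 32.0) and a difference of -0.03. Hira, the chaperone that deposits histone H3.3, had 4.03 to 24.8 FPKM in Sox21-high (median 14.8) and 0 to 23.0 in Sox21-low blastomeres (median 5.12). The difference of Hira was 1.36, with 0.98 without S10 and 0.14 between the top and bottom 7. Chaf1a, a subunit of the replication-coupled chaperone CAF-1, had medians of 5.16 and 11.6 FPKM, a difference of -1.04 that was -0.78 without S9 and -0.62 between group means. Hdac2, a histone deacetylase, was above 1 FPKM in 10 of 10 and 6 of 11 blastomeres, with medians of 17.2 and 7.54 FPKM, a difference of 1.09 that was 0.76 without S1, 2.19 without S6 and 0.50 between the top and bottom 7. Hdac1 had medians of 407 and 416 FPKM.

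**Figure D3:**
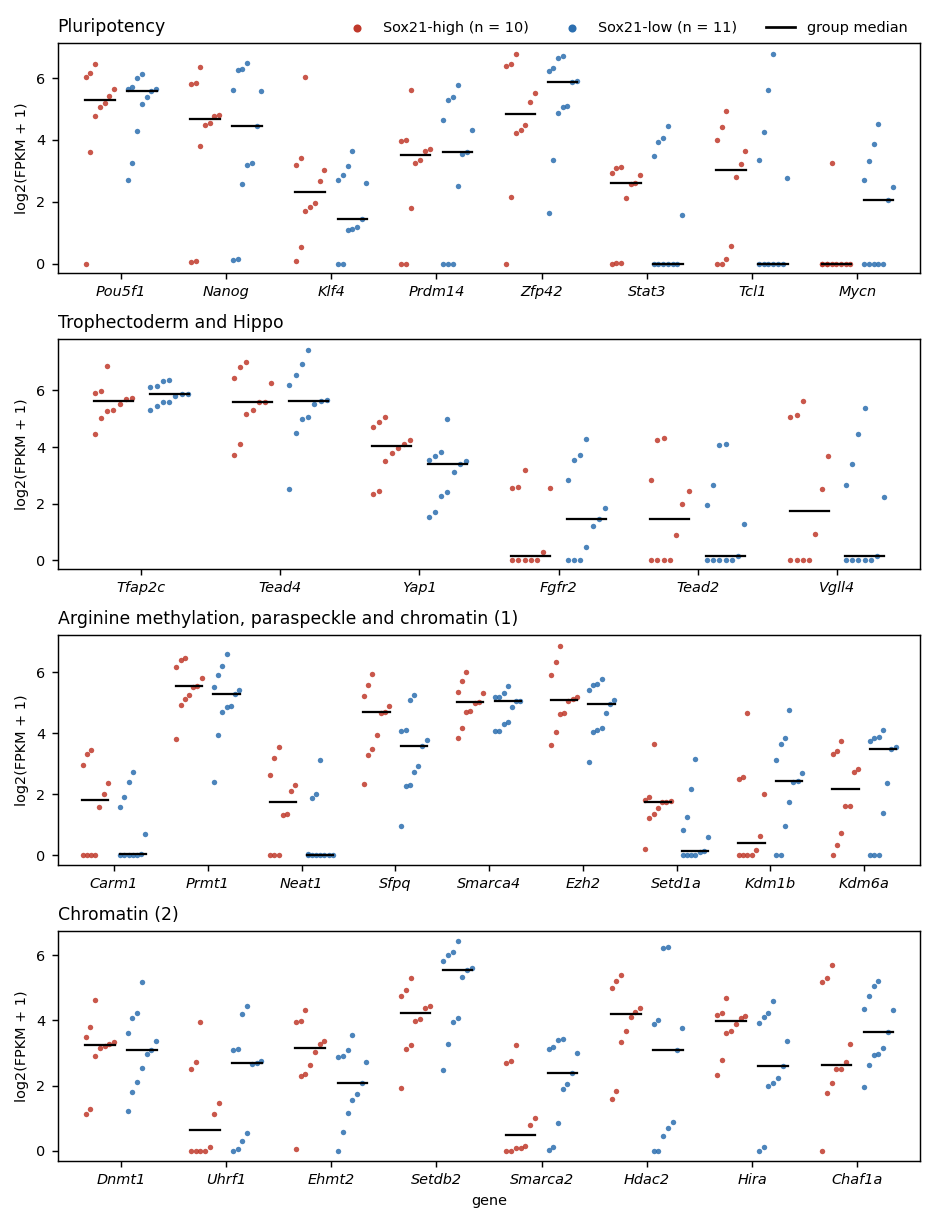
Level of each named gene, as log2(FPKM+1), in the 10 Sox21-high (red) and 11 Sox21-low (blue) 4-cell blastomeres, with the group medians as black bars. Genes with differences past 1, such as Tcl1, Carm1 and Neat1, are split between blastomeres at 0 and blastomeres at several FPKM, while Pou5f1, Tead4, Smarca4 and Ezh2 have like medians in both sets.

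Taking these 4 chromatin lists with the SOX, pluripotency and trophectoderm lists, 161 distinct genes were compared, of which 12 were higher and 9 lower by 1 or more. That is 13%, against 17.1% of all genes, and the median difference was 0.02. Of these 21 genes past 1, Mycn, Neat1, Kdm1b and Smarca2 kept their side past 1 in every setting that could compute them and in every leave-one-out, and the other 17 did not. Of the SOX family, Sox15 was the abundant member, with 235 to 737 FPKM in Sox21-high (median 565) and 279 to 954 in Sox21-low blastomeres (median 487). Sox13 was above 1 FPKM in 6 of 10 and 6 of 11 blastomeres, and its difference of 1.04 was 0.73 without S16 and 0.47 with all 24 columns.

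The medians of the other lists were within 1 of 0, except that of the sex-linked genes, given below. Of 18 compared maternal oocyte transcripts 2 were higher and 5 lower (38.9%, against 17.1% of all genes). Their median difference was -0.16, and from -0.43 to 0 over all settings and leave-one-outs. Gdf9, an oocyte growth factor, had medians of 7.50 and 0.0712 FPKM, a difference of 2.98 that was 1.76 without S15 and 0.36 among blastomeres with 7000 or more genes, and its partner Bmp15 had 0.0764 and 2.10 FPKM, a difference of -1.53 that was -0.67 between group means. Genes of the subcortical maternal complex, which the cleaving embryo needs, also lay on both sides. Nlrp5 differed by 1.23 (0.57 without S14), Ooep by -1.20 (0.22 with 7000 or more genes) and Tle6 by -2.02 (-0.11 between the top and bottom 7), while Khdc3, at medians of 183 and 116 FPKM, differed by 0.41. Nlrp14 (-1.32) and Oas1d (-1.19, and -0.95 without S5) were lower too.

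Cell cycle lists had next to no gene past 1, where 17.1% of all genes were. None of 23 S phase genes was, with differences from -0.65 to 0.92 and a median of -0.18, which ran from -0.25 to -0.073 over all settings and leave-one-outs. Of 27 mitosis genes only Cenpf, a kinetochore protein, was, at medians of 0.897 and 3.58 FPKM and a difference of -1.28 that was -0.53 with 7000 or more genes. The summed FPKM had medians of 2813 and 2998 for the S phase list and 5744 and 5750 for the mitosis list. Abundant genes were seldom past 1 in any case, and the lists were not compared with genes of like level. The polarity and junction list (19 compared) and the primitive endoderm and FGF list (10 compared) had none past 1 either, with Gata4, a primitive endoderm factor, at a difference of 0.91. Of 8 compared genes of the 2-cell transcription burst, Tdpoz2 alone was past 1 (1.79, and 0.93 without S14). Of 12 housekeeping genes, Gusb (1.45, and 0.84 between group means) and B2m (-1.29, and -0.80 without S7) were past 1. That is 16.7%, against 17.1% of all genes.

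Among 14 compared stress and cell death genes, 2 were lower (14.3%, against 17.1% of all genes). Mdm2, the ubiquitin ligase that holds p53 in check, had 2.77 to 92.5 FPKM in Sox21-high (median 14 FPKM) and 23.4 to 118 in Sox21-low blastomeres (median 45.7), a difference of -1.64. All 11 Sox21-low blastomeres exceeded the Sox21-high median of Mdm2, 1 of 10 Sox21-high blastomeres exceeded the Sox21-low median, and the difference stayed past -1 in all 21 leave-one-out computations and 9 of 9 other settings. Pmaip1 (Noxa), a p53 target that promotes cell death, was above 1 FPKM in 2 of 10 and 6 of 11 blastomeres, a difference of -2.66 that was -1.35 without S9 and -0.035 between the top and bottom 7. Cdkn1a, another p53 target, had medians of 125 and 149 FPKM, and Trp53 itself 32.4 and 37.4 FPKM. The sex of the embryos is not given by the columns. A Y-linked transcript, Eif2s3y or Ddx3y, was above 1 FPKM in 5 of 10 Sox21-high and 7 of 11 Sox21-low blastomeres. The median of the 2 compared sex-linked genes was -1.72, and from -3.27 to -0.17 when 1 blastomere was left out. The Eif2s3y difference of -3.18 came with detection in 5 of 10 and 6 of 11, and was -0.74 without S9.

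The genes that followed Sox21 most closely over the 21 blastomeres were none of the list genes. They were ranked by Spearman's rho among the 5918 genes with a mean log2(FPKM+1) of 2 or more, whose rho had quartiles of -0.17 and 0.13. The points share libraries and possibly embryos, so rho is a description. Ptpn21, a cytoplasmic tyrosine phosphatase, had the highest rho, 0.78. It had 9.27 to 42.2 FPKM in Sox21-high (median 20.7) and 0.606 to 19.5 in Sox21-low blastomeres (median 11.8), and its highest value was in S19, the blastomere with the most Sox21. Hif1an, the asparagine hydroxylase that limits hypoxia-inducible factor, had a rho of 0.69 and medians of 10.5 and 4.68 FPKM. Bach1, a heme-regulated repressor, had a rho of 0.69 and medians of 17.6 and 9.88 FPKM, and all 10 Sox21-high blastomeres exceeded its Sox21-low median.

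The other genes of that end were Lrrc58 (0.68), the translational repressor gene Gigyf2 (0.67), the splicing regulator gene Rbm10 (0.62), the ubiquitin ligase genes Rnf5 (0.62) and Cul5 (0.62), the Fanconi anaemia translocase gene Fancm (0.61) and Ddias (0.61). Unlike the genes with the largest differences, all 10 had medians above 1 FPKM in both sets. Only 3 of them, Hif1an (1.02), Rbm10 (1.33) and Rnf5 (1.54), differed by 1 or more. Hif1an stayed past 1 in 10 of the 21 leave-one-out computations and was 0.90 without S14. Rbm10 was 2.64 without S6, and 0.85 with all 24 columns. Among blastomeres with 7000 or more genes Hif1an was 0.74, Rbm10 0.61 and Rnf5 0.46. Rnf5 had 23.6 to 68.1 FPKM in Sox21-high (median 31.3) and 0 to 35.5 in Sox21-low blastomeres (median 10.1). At the other end stood Sdf4 (-0.74), which encodes a calcium-binding protein of the Golgi, and Stt3a (-0.71), a catalytic subunit of the oligosaccharyltransferase that attaches N-glycans. Dhrs13 (-0.69), Gpr107 (-0.68) and the centriole appendage gene Odf2 (-0.66) followed. Among blastomeres with 7000 or more genes, the differences of Gpr107 (-1.22) and Odf2 (-1.76) were -0.65 and -0.68. Stt3a had 22.6 to 80.5 FPKM in Sox21-high (median 35.4) and 46.6 to 171 in Sox21-low blastomeres (median 86.7), a difference of -1.27 that was past -1 under every leave-one-out and in 9 of 9 other settings. No Sox21-high blastomere exceeded its Sox21-low median, and every Sox21-low blastomere exceeded its Sox21-high median.

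**Figure D4:**
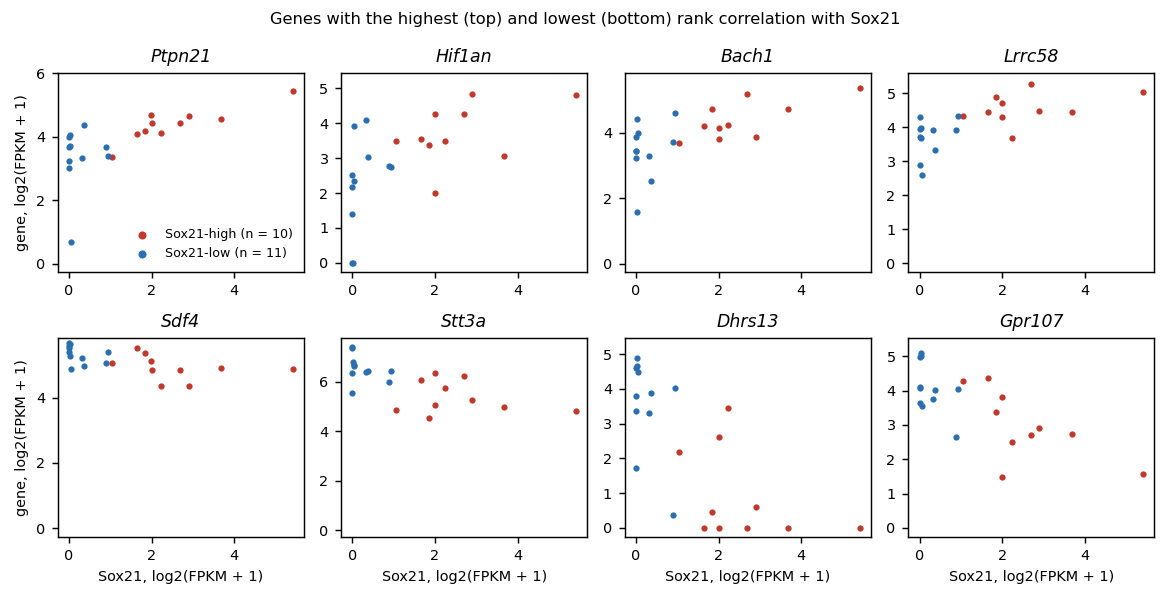
Level of 8 genes against that of Sox21, both as log2(FPKM+1), in the 10 Sox21-high (red) and 11 Sox21-low (blue) 4-cell blastomeres. The top row has the 4 highest values of Spearman's rho (0.78 for Ptpn21) and the bottom row the 4 lowest (-0.74 for Sdf4), and in all of them the sets overlap on the vertical axis.

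The promoters of these genes were searched for letters that SOX and POU factors are known to bind, in the RefSeq promoters of GRCm38.p6, from 250 bases before to 50 after the gene start. The motif ACAAT, or ATTGT on the other strand, lay in 31.0% of all 32851 promoters and in 3 of the 21 promoters found for the 15 genes chosen by rho. It lay in 7 of the 19 promoters found for the genes with the largest and smallest differences. ACAAAG, or CTTTGT, lay in 18.7% of all promoters and in 0 of 21 and 3 of 19. The octamer ATGCAAAT, or ATTTGCAT, lay in 1.74% of all and in none of these. The 3 matches among the genes chosen by rho are shown with the motif in capitals, as the gene strand reads, at chr16:87698738-87698767 for Bach1, chrX:20617303-20617332 for Rbm10 and, on the minus strand, chr9:36767745-36767774 for Stt3a. Bach1 and Rbm10 were higher and Stt3a lower in Sox21-high blastomeres. A match is not evidence of binding.

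Bach1: gcgctcagcaatACAATccacaacgttaca
Rbm10: ggagacggaaatACAATgtgcgcagctgcg
Stt3a: aatgacagtcacATTGTccattcaaaagga

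The largest differences between medians were of another kind. Among the same 5918 genes, the 10 at the top lay between 3.52 and 4.00, and in all 10 the Sox21-low median was at or under 1 FPKM. They were the zinc finger genes Zfp873 and Zfp954, the synaptonemal complex gene Syce3, Gm12238, Ribc1, the RNA helicase gene D1Pas1, the host gene Snhg16 of small nucleolar RNAs, Icam4, the pseudouridine synthase gene Pus3 and the mitochondrial gene Apool. Zfp873 was above 1 FPKM in 7 of 10 Sox21-high (median 16.3, highest 50.8) and 4 of 11 Sox21-low blastomeres (median 0.0693, highest 40.3). Snhg16 was the most regular of them, above 1 FPKM in 9 of 10 and 5 of 11, with maxima of 27.8 and 24.2 FPKM. Between group means the 10 differences were smaller, from 1.19 for Zfp954 to 1.97 for Snhg16, and between the top and bottom 7 that of Snhg16 was 1.45. Without S13 the differences of Pus3 and Ribc1 were 1.48 and 2.27, without S15 that of Icam4 was 2.21, and without S10 that of Syce3 was 2.48. Among blastomeres with 7000 or more genes, Gm12238 turned to -1.89, and Zfp954 (0.37), Pus3 (0.49), Ribc1 (0.89) and Icam4 (0.90) were no longer past 1.

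At the bottom were the kinase gene Dyrk3 (-4.74), Csrp2 (-4.54), the growth factor gene Fgf3 (-4.29), the asparagine synthetase gene Asns (-4.17) and Prtn3 (-3.93). Dhrs13, Rgcc, the annexin gene Anxa2, Nenf and Snap47 completed the 10, at -3.66 to -3.53. Between group means these differences were smaller too, from -2.76 for Snap47 to -1.09 for Anxa2, with -2.10 for Dyrk3 and -1.92 for Fgf3. With all 24 columns Fgf3 was -2.46. Nenf was -0.86 among blastomeres with 7000 or more genes. Dhrs13 and Snap47 were the most ordered of them. Dhrs13 was above 1 FPKM in 3 of 10 Sox21-high (highest 9.91) and 10 of 11 Sox21-low blastomeres (highest 28.3). Snap47 was above 1 FPKM in 5 of 10 (highest 11.8) and 10 of 11 (highest 53.0). For either gene the Sox21-high blastomere had more in 9.09% of the 110 pairs.

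The 8-cell table gave blastomeres that the 4-cell rule had not used. It has 26 columns, of which 23 had 5000 or more genes, and their own Sox21 median was 1.23 FPKM. The 11 Sox21-high blastomeres had 1.32 to 19.5 FPKM of Sox21 (median 5.11) and the 12 Sox21-low ones 0 to 1.23 (median 0). Every column whose name begins with NA fell in the Sox21-low set, and what sets these columns apart is not known. Of 7488 genes, 774 (10.3%) were higher and 670 (8.95%) lower by 1 or more, and again no gene had ranges without overlap. Here the FPKM denominator moved with the split, with medians of 16.7 M and 17.9 M fragments and a rho with Sox21 of -0.42, and its part in the differences was not tested. Without the columns named NA, and with the Sox21 median taken anew, 1140 genes were higher and 604 lower. The comparisons of the stages below keep these columns.

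The differences of the stages were unrelated across genes. Over the 7059 genes compared at both, Pearson's r was -0.01 and Spearman's rho -0.01, across genes that are not independent. Of those higher at 4 cells, 18.0% were higher at 8 cells, where 9.97% of all 7059 were. Of those lower at 4 cells, 16.0% were lower again, where 8.43% of all were. Opposite sides were as common, with 74 and 110 genes past 1 in opposite directions against 84 and 89 in the same.

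Named genes also lay on both sides. Of the 21 SOX, pluripotency, trophectoderm and chromatin genes past 1 at 4 cells, 16 were compared at 8 cells. Setdb2 (-1.61) and Smarca2 (-1.83) were past 1 on the same side. Sox13 (-1.62), Fgfr2 (2.79), Neat1 (-1.74), Setd1a (-1.40) and Kdm6a (1.53) were past 1 on the opposite side. The other 9 were within 1 of 0, among them Carm1 (-0.55), Zfp42 (0.13), Ehmt2 (0.12) and Hira (0.43). Setdb2 at 8 cells had medians of 2.95 FPKM in Sox21-high and 11.1 in Sox21-low blastomeres.

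Of the 10 genes with the highest rho at 4 cells, Rbm10 was past 1 again, at 1.69, and the others were within 1, such as Ptpn21 at 0.29. Of the 5 with the lowest rho, none was past -1, Stt3a was at 0.03, and Gpr107 (1.21) and Odf2 (1.29) lay past 1 on the opposite side. D1Pas1 (3.16) was the 1 of 10 top genes that kept its side past 1, while Zfp873 (-4.20) and Syce3 (-1.17) lay past 1 on the opposite side. Anxa2 (-3.85) and Snap47 (-1.73) kept theirs at the bottom, while Asns lay at 4.80 and Dyrk3 at 2.78. Mdm2, so regular at 4 cells, differed by 0.24 at 8 cells.

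**Figure D5:**
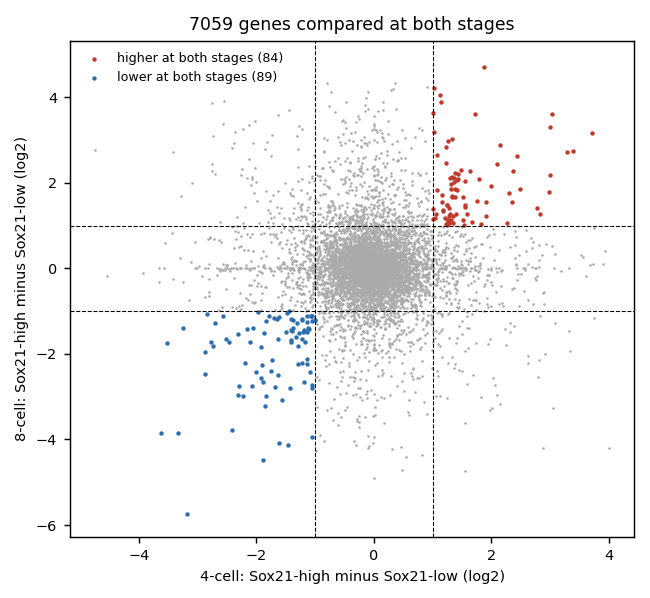
Difference between the Sox21-high and Sox21-low medians of log2(FPKM+1) at 4 cells (horizontal) and at 8 cells (vertical) for the 7059 genes compared at both stages, with dashed lines at 1 and -1. Red and blue mark the 84 genes higher and the 89 lower by 1 or more at both, and the cloud has no slope.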

How the data were processed

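Single-blastomere libraries were made by Smart-seq2 and Nextera XT. The authors aligned reads to mm10 with STAR 2.5.1b, counted those mapped uniquely with HTSeq on RefSeq genes and RepeatMasker copies, and deposited tables of FPKM per gene and of a signal per repeat copy whose unit the text does not name, so repeats were used only as above 0. No column name of the 2 gene tables (50 columns) matched a sample, so each stage was treated as 1 sample and no p-value was computed. Of the 15218 gene identifiers of the 4-cell table, 15200 were named through RefSeq (GRCm38.p6).

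Columns were kept with 5000 or more genes above an FPKM of 1 and split at the Sox21 median. Differences were taken between group medians of log2(FPKM+1), over genes with a mean of 1 or more, and called at 1 or -1. The gene lists, their members and the split were chosen with earlier results of these data known, and so was the naming rule. It names the fixed list genes, list members past 1 or -1, and, among genes with a mean of 2 or more, the 10 largest and 10 smallest differences and the 10 highest and 5 lowest values of Spearman's rho with Sox21. Members of other lists are quoted beside them as examples, and abundant genes past 1 were named after their values were seen. The FPKM denominator of a column was estimated from genes with 1 transcript, as the most frequent value that a single fragment would give. In the 21 columns, at least 90.6% of values from 0.5 to 10 fragments were then within 0.1 of a whole number. Exon lengths came from a later release than the authors' annotation. The shares of column pairs and the similarity of blastomeres were added after the data were seen. Computations used Python 3.11.15, pandas 2.3.3, numpy 2.4.6 and scipy 1.17.1, and the functions were tested on simulated data. Alternatives were the pseudocount, the filter, group means, scaling, the columns used, the split, and leaving out each column.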

Additional observations from a re-analysis of the deposited data

Results flagged for a closer look

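In the 10 Sox21-high blastomeres, 86 measures were screened for a single value far from the others, and 9 passed the critical value of 0.466 for the gap over the range. For normally distributed values, chance alone flags about 1 in 20 groups. That rate need not hold for genes with many blastomeres at 0, such as Mycn, at 0 in 9 of 10. The 11 Sox21-low blastomeres were too many for this screen. No explanation was tested.

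S16 gave 5 of them. It was the lowest for Pus3, Apool and Rbm10, each at a log2(FPKM+1) of 0, and the highest for Mycn (3.26, the others at 0) and Setd1a (3.65, the next at 1.90).

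S22 had the lowest FPKM denominator, 7.81 M, where the next was 12.3 M, and the lowest Pou5f1, at 0, where the next was 3.60 on the log2 scale. S19, which had the most Sox21, was lowest for Snhg16, at 0. S12, the Sox21-high blastomere nearest to the threshold, was lowest for Ehmt2, at 0.0458 on the log2 scale, where the next was 2.28.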

How the results depend on the processing

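No paired analysis was possible because no column name gives an embryo, and order or depth was not used to assign one. The 602 higher and 749 lower genes became 174 and 279 with a filter on a median FPKM above 5 (5477 genes), and 282 and 336 with group means. They became 1117 and 841 between the top 7 and bottom 7 blastomeres by Sox21, where 2 genes did not overlap. With the 14 blastomeres of 7000 or more genes they were 648 and 912, and 6 genes did not overlap. Higher genes made up 44.6% of all calls, 57.0% between the top and bottom 7, 38.4% with the filter and 37.2% with all 24 columns. A pseudocount of 0.1 gave 855 and 1013, and a cut of Sox21 at 1 FPKM gave the same groups. Rescaling by size factors gave 594 and 695. Leaving out 1 blastomere gave 498 to 695 higher and 682 to 868 lower genes, a median difference of -0.06 to 0, and 0 genes without overlap. At 8 cells the counts were 1140 and 604 without columns whose names begin with NA. Among blastomeres with 7000 or more genes the sign turned for Gm12238 (-1.89), Vgll4 (-0.15), Carm1 (-0.72), Ehmt2 (-0.078), Nlrp5 (-0.52), Ooep (0.22), Tdpoz2 (-0.49) and B2m (0.50). It turned between the top and bottom 7 for Zfp42 (0.42) and Eif2s3y (0.0072), and with all 24 columns for Fgfr2 (0.083). The cause was not tested. Over these settings the pluripotency median ran from 0.012 to 0.23 and the arginine methylation median from -0.12 to 0.44. The median of H3K9 and DNA methylation ran from -0.092 to 0.30 and that of the 2-cell burst list from -0.40 to 0.094. The SOX median ran from 0 to 0.84 and the sex-linked median from -3.27 to 0. The signs of the medians of the trophectoderm, primitive endoderm, arginine methylation, chromatin, 2-cell burst, mitosis, stress and housekeeping lists turned under at least 1 of 12 settings, and those of the pluripotency, maternal, polarity and S phase lists under none. Of the 80 named genes, 61 were past 1, and 21 of these kept their side past 1 in every setting that could compute them and every leave-one-out. Of the 21 leave-one-outs, Kdm6a, Tead2, Vgll4, Ehmt2, Zfp42 and Hif1an stayed past 1 in 10, and Sox13 and Chaf1a in 11. B2m and Eif2s3y did so in 15, and Hdac2, Hira, Nlrp5, Tdpoz2 and Oas1d in 16. Group means ended 25 calls, the filter of 7000 or more genes 25, the top and bottom 7 ended 10, all 24 columns 8, an equal sum of FPKM 5 and size factors 2. Of the 19 named genes within 1, 8 took the other sign in a setting or leave-one-out and 5 went past 1.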

Other observations

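Repeat copies with a value above 0 were as numerous in both sets. Over all families they numbered 34406 to 49974 in Sox21-high (median 39585) and 30687 to 56875 in Sox21-low blastomeres (median 36549) of the 278683 listed. MTA_Mm, the long terminal repeat family of oocyte transcripts, made up 2.47% to 6.56% of these copies in Sox21-high (median 3.70%) and 2.78% to 8.84% in Sox21-low blastomeres (median 5.35%). MERVL-int, the retrovirus of the 2-cell burst, made up medians of 1.76% and 1.85%, and B2 elements, the most numerous of the families counted, 23.4% and 24.6%. Spearman's rho of Sox21 with the share over the 21 blastomeres was -0.23 for MTA_Mm and -0.12 for MERVL-int.

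The 3 columns left out for few genes held Sox21 at 0.0272, 5.08 and 32.2 FPKM, with 3009, 4939 and 3699 genes above an FPKM of 1. Xist, the RNA of the inactive X chromosome, was above 1 FPKM in 4 of 10 Sox21-high and 3 of 11 Sox21-low blastomeres.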
